A study of Mus musculus with 13 samples.

Results

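The genes described here are 10 immediate early genes: Fos, Fosb, Jun, Junb and Jund, which encode subunits of the AP-1 transcription factor, and Egr1, Ier2, Dusp1, Zfp36 and Atf3, which are induced by the same kinds of stimuli. They were listed by symbol, with earlier results of these data known, and all 10 were found among the 24015 gene rows of the count table. Of these, 9 passed the filter on low counts and were tested together with 12536 genes in all; Atf3 did not pass it. In the study behind the libraries, a single Vwf+ haematopoietic stem cell (HSC, the bone marrow cell that renews itself and makes all blood lineages) was transplanted into each mouse, and the blood it made was followed for 16 weeks. Donor-derived HSCs were then sorted as LSK Flt3- CD150+ CD48- CD45.2+ Gata1- cells from the bone marrow of the C57BL/6 recipients, 100 cells to a library. The 13 libraries fall into 3 classes by the blood the transplanted cell had made: 4 of MUL-HSC (all lineages), 6 of PEM-HSC (platelets, erythroid and myeloid cells) and 3 of PLT-HSC (platelets only). All classes share the strain, the Vwf+ starting cell, the sort and the Gata1- gate, and no untreated or untransplanted group was included. The labels do not say whether replicates of a class came from separate recipients, so the p-values measure the spread between these libraries.

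Immediate early genes are transcribed within minutes of a growth factor, cytokine or stress signal, without new protein synthesis, because the factors that switch them on are already present in the cell and only need to be phosphorylated. Serum response factor with its partners and CREB are the best known of these factors. The resulting Fos and Jun proteins pair through leucine zippers to form AP-1, while Dusp1, a phosphatase that inactivates MAP kinases, and Zfp36, a protein that speeds decay of AU-rich messenger RNAs, limit the response. The same genes are also known to respond to tissue dissociation and cell sorting. All 13 libraries were sorted the same way and no unsorted cells were measured, so the part of handling in the levels below was not tested.

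Promoter sequences are shown for 4 genes that carry a recognised response motif and that the results below turn on: Fos and Dusp1, whose levels were closely related, Zfp36, the other feedback gene, and Jun, whose level moved least with the rest. Each is the 250 bases before the annotated transcript start, 5′ to 3′ on the gene's own strand, from RefSeq on GRCm38.p6, with motif matches in capitals.

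Fos: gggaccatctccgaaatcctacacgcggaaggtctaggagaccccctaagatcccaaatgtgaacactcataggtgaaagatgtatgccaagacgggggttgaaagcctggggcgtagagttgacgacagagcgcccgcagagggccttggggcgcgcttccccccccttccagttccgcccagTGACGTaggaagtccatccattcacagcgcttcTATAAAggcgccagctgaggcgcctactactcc

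Dusp1: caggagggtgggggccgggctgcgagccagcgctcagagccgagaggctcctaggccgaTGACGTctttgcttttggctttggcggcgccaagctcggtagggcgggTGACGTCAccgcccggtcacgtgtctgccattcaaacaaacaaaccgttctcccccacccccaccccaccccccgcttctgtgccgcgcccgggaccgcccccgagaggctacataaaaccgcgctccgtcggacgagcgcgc

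Zfp36: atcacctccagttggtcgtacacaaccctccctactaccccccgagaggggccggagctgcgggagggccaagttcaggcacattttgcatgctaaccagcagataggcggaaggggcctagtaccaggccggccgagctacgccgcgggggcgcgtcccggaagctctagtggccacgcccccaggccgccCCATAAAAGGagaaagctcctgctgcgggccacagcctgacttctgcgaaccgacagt

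Jun: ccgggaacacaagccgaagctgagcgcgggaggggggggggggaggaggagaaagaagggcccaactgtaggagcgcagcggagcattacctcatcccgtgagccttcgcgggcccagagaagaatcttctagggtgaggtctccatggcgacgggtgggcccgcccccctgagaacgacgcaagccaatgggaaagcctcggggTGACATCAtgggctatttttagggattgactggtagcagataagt

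The Fos stretch lies at chr12:85473640-85473889 on the plus strand, that of Dusp1 at chr17:26508473-26508722 on the minus strand, that of Zfp36 at chr7:28379229-28379478 on the minus strand and that of Jun at chr4:95052223-95052472 on the minus strand. Positions here count the first transcribed base as 0. In Fos the capitals mark TGACGT, the core of the cyclic AMP response element bound by CREB, at -66 to -61, and TATAAA, the TATA box, at -33 to -28. In Dusp1 they mark TGACGT at -191 to -186 and the full element TGACGTCA, which contains TGACGT, at -143 to -136. Zfp36 has a CArG box, the site class of serum response factor, at -58 to -49, and Jun has TGACATCA, a variant AP-1 and ATF site, at -45 to -38. Among 32851 mouse promoter windows of the same length, searched on both strands, 6.47% held TGACGT, 1.55% TGACGTCA, 1.47% a CArG box, 2.93% TGACATCA and 12.4% TATAAA. The AP-1 site TGACTCA, found in 4.46% of windows, was searched as well and matched no member. Of the 10 genes 8 had an entry; the entries for Egr1 and Ier2 were missing. Atf3, not printed here, held TGACGT on the opposite strand at -8 to -3, and the stretches of Fosb, Junb and Jund held none of these motifs. A match in these letters is a description of the sequence and no evidence of binding in these cells.

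Total gene counts ran from 16371921 to 41367057 per library; MUL-HSC held both ends, and the narrower ranges were 22913695 to 28013676 for PEM-HSC and 29017378 to 32437607 for PLT-HSC. A count of 0 therefore allows a level of up to 0.0725 to 0.183 CPM (a gene's count scaled to 1000000 gene counts of its library), taking 3 counts as the limit and covering counting error only. All 10 HSC markers were detected in each class, and their summed level ran from 2090 to 3052 CPM over MUL-HSC libraries, from 2981 to 3532 over PEM-HSC and from 3238 to 4158 over PLT-HSC. Of the markers of other cells, Ms4a1 of B cells, Cd3e, Cd3g, Cd8a and Cd4 of T cells and Cdh5 of endothelium were at 0 in all libraries, while others of the same lists were not: Cd79b was at 90.5 to 184 CPM, Nkg7 at 2.64 to 201, Klrb1c at 0 to 367, Pecam1 at 8.97 to 62.5 and Kdr at 0 to 15.99. In each class 2 or 3 of 5 B cell markers and 2 of 6 T and NK cell markers were detected. A bulk level does not tell fewer expressing cells from less RNA per cell.

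None of the 9 tested genes passed the test between the classes. What stood out was how far the libraries of 1 class lay apart, and that the genes other than Jun moved up and down together. In the MUL-HSC 1 library all 9 were at their lowest. In PLT-HSC 1 they were at their highest for 7 of 9 genes and among the 2 highest for 9 of 9. The ends of the range were thus replicates of MUL-HSC and PLT-HSC, while MUL-HSC 3 and PLT-HSC 3 lay within the range of the PEM-HSC libraries for 9 of 9 genes.

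**Figure D1:**
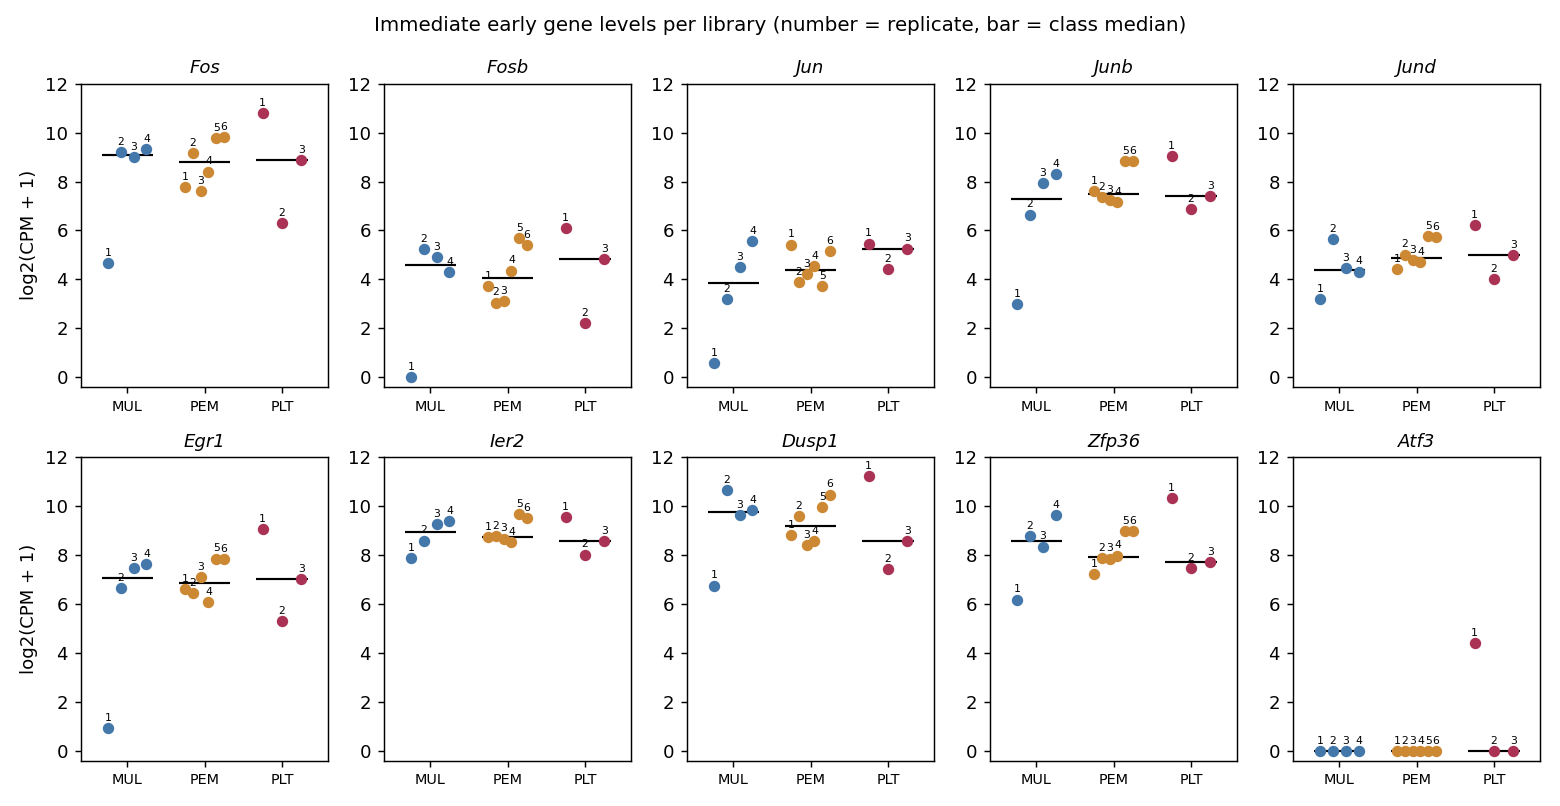
Level of each of the 10 genes in every library, as log2(CPM + 1), by class; numbers are replicate numbers and bars are class medians. MUL-HSC 1 is at the bottom of 9 panels, PLT-HSC 1 at or near the top, and Atf3 was detected only in PLT-HSC 1.

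Fos, the AP-1 subunit that needs a Jun partner to bind DNA, was at 24.6, 588, 510 and 638 CPM in MUL-HSC 1 to 4. In the 6 PEM-HSC libraries it ran from 193 to 893 CPM with a median of 457. In PLT-HSC 1 to 3 it was at 1781, 78.0 and 468 CPM. The highest and the second lowest Fos level of the series were thus 2 replicates of the same class, and the 3 classes overlapped. Class means were 440.3 ± 282 CPM (SD, n = 4) in MUL-HSC, 514 ± 314 (SD, n = 6) in PEM-HSC and 776 ± 892 (SD, n = 3) in PLT-HSC. The log2 fold change of Fos in PLT-HSC against MUL-HSC was 0.81 with a standard error of 1.02 (edgeR quasi-likelihood test, adjusted p = 0.999), with an interval from -1.18 to 2.80.

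Fosb, a close relative of Fos that pairs with the same Jun proteins, had 0 counts in MUL-HSC 1 and 36.5, 29.0 and 18.5 CPM in the other MUL-HSC libraries. PEM-HSC ran from 7.29 to 50.4 CPM with a median of 15.9, and PLT-HSC was at 67.6, 3.69 and 27.7 CPM. As for Fos, PLT-HSC 1 was the highest of the 13 libraries and PLT-HSC 2 was, after MUL-HSC 1, the lowest. The measured level in PLT-HSC 1 was at least 500-fold higher than in MUL-HSC 1, with MUL-HSC 1 set at the floor of 3 counts for that library. That floor covers counting error only.

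Among the Jun genes, Jun itself, the subunit that can pair with itself as well as with Fos, departed from the common order. It was at 0.496, 8.14, 21.9 and 46.1 CPM in MUL-HSC 1 to 4. PEM-HSC ran from 12.3 to 41.8 CPM with a median of 19.97, and PLT-HSC was at 43.1, 20.3 and 37.3 CPM. The lowest value was again MUL-HSC 1, from 11 counts, but the highest was MUL-HSC 4, and PEM-HSC 1, among the lower libraries for Fos, held the third highest Jun level. Junb, a weaker activator that can hold back Jun, was the most abundant of the 3 Jun genes per length. Its levels were 6.94, 99.5, 245 and 317 CPM in MUL-HSC, 143 to 457 with a median of 178.5 in PEM-HSC, and 525, 116 and 169 in PLT-HSC. Jund, the Jun gene known for steady expression and little induction, was at 8.20, 49.1, 21.1 and 19.0 CPM in MUL-HSC, 20.4 to 54.1 with a median of 28.8 in PEM-HSC, and 73.0, 15.2 and 30.6 in PLT-HSC. Jund spanned 8.90-fold from its lowest to its highest library, against 92.9-fold for Jun and 75.6-fold for Junb.

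Egr1, a zinc finger factor known to restrain division and migration of HSCs, was lowest, second lowest and highest in the same libraries as Fos. It was at 0.901 CPM (20 counts) in MUL-HSC 1 and at 99.5, 176 and 197 in MUL-HSC 2 to 4. PEM-HSC ran from 66.3 to 232 CPM with a median of 117, and PLT-HSC was at 538, 38.5 and 129 CPM. From MUL-HSC 1 to PLT-HSC 1 this is a 597-fold range, the widest among the 8 of these 9 genes that were detected in all 13 libraries. Its mean was 118 ± 88.8 CPM (SD, n = 4) in MUL-HSC, 141 ± 72.4 (SD, n = 6) in PEM-HSC and 235 ± 266 (SD, n = 3) in PLT-HSC. The log2 fold change of 0.998 in PLT-HSC against MUL-HSC was the highest of the 9 in that comparison and smaller than its standard error of 1.11.

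Ier2, a small nuclear protein induced by growth factors, had the narrowest range. It was at 234, 388, 625 and 666 CPM in MUL-HSC 1 to 4, at 367 to 824 with a median of 432 in PEM-HSC, and at 748, 259 and 382 in PLT-HSC. The same libraries were at its ends (MUL-HSC 1 and PLT-HSC 2 low, PLT-HSC 1 and PEM-HSC 5 high), but the whole range was 3.52-fold. Its class means of 478 ± 204 (SD, n = 4), 533 ± 194.5 (SD, n = 6) and 463 ± 254 CPM (SD, n = 3) lay closest together, and its interval in PLT-HSC against MUL-HSC, -0.80 to 0.71 on the log2 scale, was the tightest of the 9 genes.

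The feedback genes followed Fos. Dusp1 was at 108, 1626, 800.5 and 926 CPM in MUL-HSC 1 to 4, at 338 to 1429 with a median of 616 in PEM-HSC, and at 2401, 172 and 382 in PLT-HSC. Zfp36 was at 71.7, 444, 325 and 792 CPM in MUL-HSC, at 149.7 to 507 with a median of 243 in PEM-HSC, and at 1297, 176 and 210 in PLT-HSC. Both were lowest in MUL-HSC 1 and highest in PLT-HSC 1, over 22.3-fold for Dusp1 and 18.1-fold for Zfp36. Without PLT-HSC 1, the remaining PLT-HSC values of both genes lay within the lower part of the MUL-HSC range.

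Atf3, a stress-induced member of the ATF family that pairs with Jun proteins, had 0 counts in 12 libraries and 582 counts (20.1 CPM) in PLT-HSC 1. Its level there was at least 109-fold higher than the highest floor of the other libraries, which covers counting error only. With 1 library carrying all the counts, its class means of 0, 0 and 6.69 ± 11.6 CPM (SD, n = 3) describe that library. In a fit without the filter on low counts, Atf3 had an adjusted p of 0.631 in PLT-HSC against MUL-HSC and of 0.783 in PLT-HSC against PEM-HSC (edgeR quasi-likelihood test).

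Compared per length of exon, the 10 genes fell into a wide order of abundance. The median level over 13 libraries was 280 CPM per kilobase for Ier2, 237 for Dusp1 and 217 for Fos, and the range of Ier2, 154 to 542, lay inside those of the other two. Junb at 73.5 and Zfp36 at 72.8 CPM per kilobase followed and did not differ beyond their spread. Egr1 at 28.8, Jund at 15.8, Jun at 6.86 and Fosb at 3.13 CPM per kilobase came last, with neighbours in the order overlapping in each case. The order holds for medians: in MUL-HSC 1, Fos was at 10.4 CPM per kilobase and Ier2 at 154.

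The comparison of the classes asks whether HSCs that make only platelets, or platelets with erythroid and myeloid cells, carry another level of these genes than multilineage HSCs. In PLT-HSC against MUL-HSC, 0 of 9 genes were called at an adjusted p under 0.05, beside 0.0479% of all tested genes (6 of 12536). In PEM-HSC against MUL-HSC 0 of 9 were called, beside 0.00798% (1 gene), and in PLT-HSC against PEM-HSC 0 of 9, beside 0%. The joint test for any difference among the 3 classes called 0 of 9, beside 0.00798%. At an unadjusted p under 0.05, 0 of 9 genes passed in each of these tests, while 924, 744 and 467 of all genes did in the 3 pairwise comparisons. DESeq2 called 0 of 9 in the 3 pairwise comparisons and the joint test, beside 2.01%, 1.42%, 0.752% and 0.522% of the genes it gave an adjusted p. Limma voom called 0 of 9, beside 0%, 0.00798%, 0.00798% and 0%. In 0 of 9 genes the libraries of 1 class were all above or all below those of another, beside 6.79%, 1.49% and 2.16% of all tested genes in the 3 comparisons.

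The fold changes themselves were mostly positive and small beside their errors. In PLT-HSC against MUL-HSC, 8 of 9 had a positive sign, with a median log2 fold change of 0.67 beside 0.039 over all tested genes. In PEM-HSC against MUL-HSC, 7 of 9 were positive with a median of 0.22, beside 0.0094, and in PLT-HSC against PEM-HSC 8 of 9 were positive with a median of 0.49, beside 0.017. These comparisons share libraries, and most of the 9 genes move together, so the signs are not separate observations. The lowest unadjusted p of a pairwise comparison was 0.228, for Zfp36 in PLT-HSC against PEM-HSC (log2 fold change 0.86, standard error 0.68, adjusted p = 1 by edgeR). The intervals were wide: that of Egr1 in PLT-HSC against MUL-HSC ran from -1.18 to 3.17 on the log2 scale, so a missed threshold here does not show equal levels.

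Most of the signs rested on single libraries. Without PLT-HSC 1, the number of positive genes went from 8 to 1 of 9 in PLT-HSC against MUL-HSC and from 8 to 1 of 9 in PLT-HSC against PEM-HSC; Jun was the exception, positive with each library left out in turn in both. Without MUL-HSC 1, 7, 2 and 8 of 9 were positive in the comparisons of PLT-HSC with MUL-HSC, PEM-HSC with MUL-HSC and PLT-HSC with PEM-HSC. With both libraries left out, a setting chosen after their values were seen, 1, 2 and 1 of 9 were positive and the median in PLT-HSC against MUL-HSC was -0.95. Leaving out the lowest MUL-HSC and the highest PLT-HSC library for these genes lowers PLT-HSC relative to MUL-HSC by construction. In PEM-HSC against MUL-HSC, Junb and Jund stayed positive with each library left out in turn, at 0.25 and 0.21 or more. Junb turned to -0.084 there with MUL-HSC 1 and 2 left out together.

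**Figure D2:**
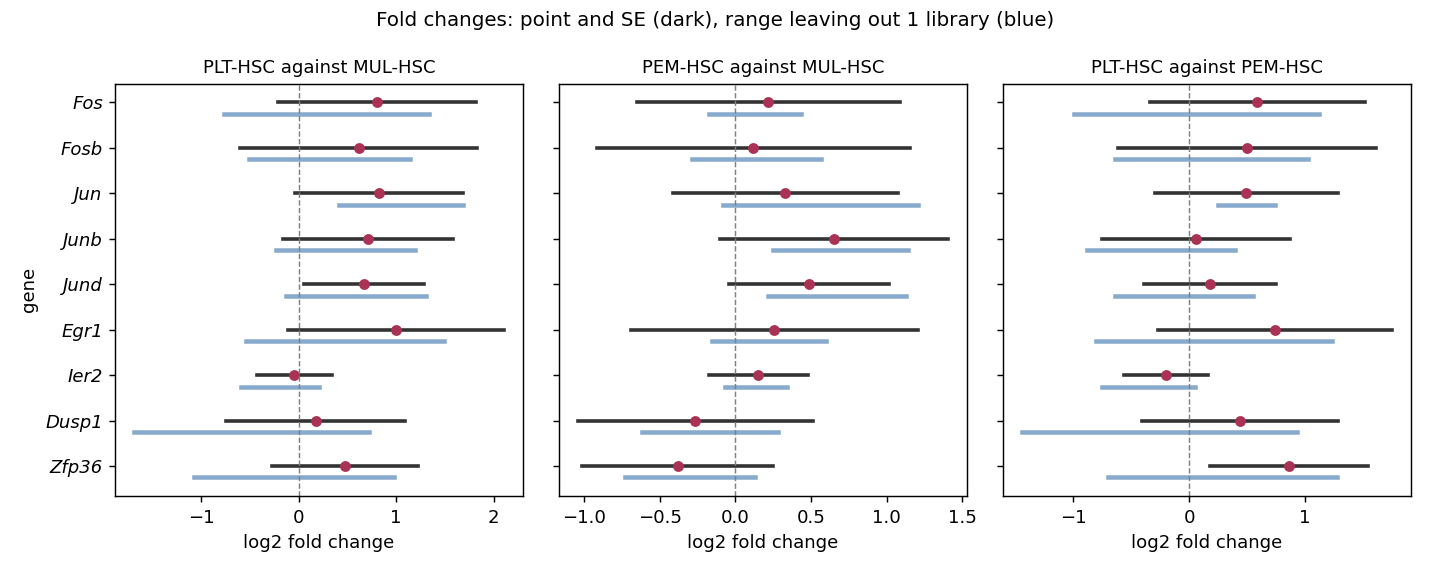
Log2 fold change of 9 genes in the 3 comparisons; points with dark bars are edgeR estimates ± 1 standard error, and blue bars span the estimates when 1 library at a time is left out. For Fos in PLT-HSC against MUL-HSC the blue bar runs from -0.77 to 1.34, crossing 0, while that of Jun stays above 0; the horizontal scales differ between panels.

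Most of the 9 genes spread more within a class than the median tested gene, and for several of them much of that spread came from 1 library. The pooled SD of log2 CPM within classes was 2.66 for Fosb, 2.22 for Egr1, 1.72 for Fos, 1.59 for Jun, 1.55 for Junb, 1.40 for Dusp1, 1.18 for Zfp36, 0.86 for Jund and 0.60 for Ier2. The median over the 9 was 1.55, beside 0.85 over all tested genes and 0.598 over the 8683 genes with a mean of at least 10 CPM. Among those 8683 genes, the percentile of the SD was 96.8 for Fosb, 93.3 for Egr1, 89.8 for Fos, 88.7 for Jun, 88.3 for Junb, 86.5 for Dusp1 and 82.2 for Zfp36. It was 70.5 for Jund and 50.7 for Ier2, near the middle. The comparison genes were not matched on abundance. Without MUL-HSC 1 the SD was 1.06 for Egr1, 1.34 for Fosb, 0.79 for Jun, 0.88 for Junb and 1.27 for Fos. It changed less for the others, to 1.14 for Dusp1, 0.96 for Zfp36, 0.77 for Jund and 0.54 for Ier2. The median of the 9 was then 0.96, beside 0.84 over all tested genes and 0.591 over those of at least 10 CPM. Without PLT-HSC 1 instead, the SD was 1.18 for Dusp1 and 0.98 for Zfp36, and the median of the 9 was 1.55. Without both MUL-HSC 1 and PLT-HSC 1 the median was 0.75, beside 0.83 and 0.581. This setting was chosen after the values were seen. Leaving out libraries at the ends of the range of these genes lowers their SD by construction. The comparison genes did not lose libraries chosen by their own values. No conclusion is therefore drawn from the median of the 9 lying below that of all tested genes and above that of genes of at least 10 CPM. Percentiles among the latter then ran from 34.3 for Ier2 to 83.1 for Fosb, with Fos at 76.2. Of the variance of log2 CPM between the 13 libraries, class accounted for 4.01% for Fos, 0.508% for Dusp1, 1.93% for Zfp36 and 22.5% for Jun, the highest of the 9. The median share was 8.57% for the 9 genes and 14.3% for all tested genes.

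**Figure D3:**
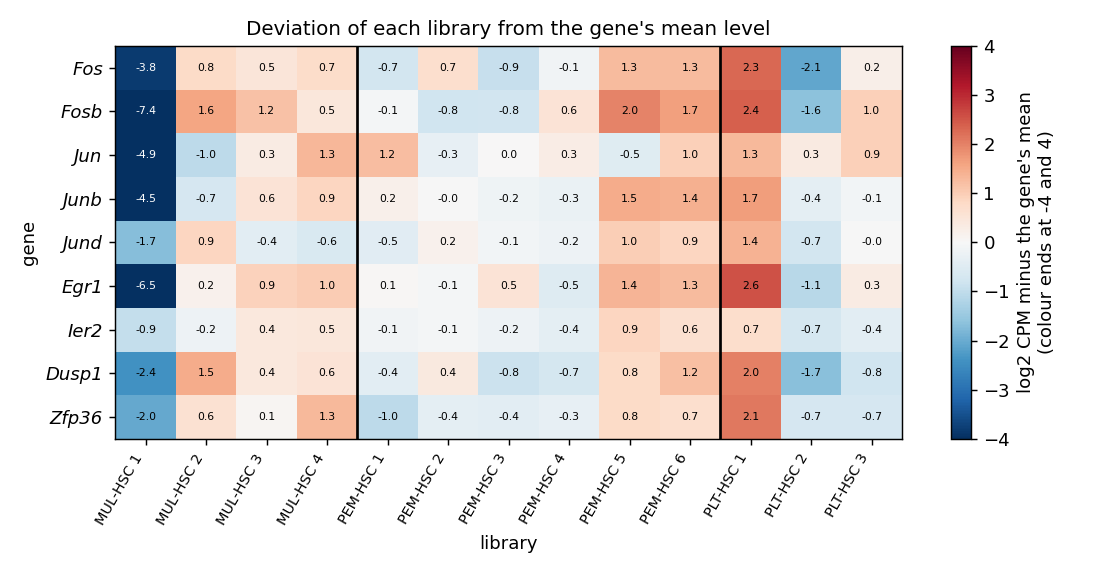
Log2 CPM of each gene in each library minus the gene's mean over 13 libraries; red is above and blue below the mean, and the colours end at -4 and 4. MUL-HSC 1 is blue in 9 of 9 genes and PLT-HSC 1 is red in 9 of 9, with PEM-HSC 5 and 6 above the mean for all genes but Jun in PEM-HSC 5.

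The mean log2 CPM of the 9 genes summarises where each library stood. It was 3.01, 7.22, 7.27 and 7.50 in MUL-HSC 1 to 4, 6.67, 6.78, 6.50, 6.64, 7.82 and 7.93 in PEM-HSC 1 to 6, and 8.65, 5.86 and 6.87 in PLT-HSC 1 to 3. MUL-HSC 1 and PLT-HSC 2 were the lowest, PLT-HSC 1, PEM-HSC 6 and PEM-HSC 5 the highest. PLT-HSC 2 was among the 3 lowest libraries for 8 of 9 genes. Other properties of the end libraries were measured beside these values. MUL-HSC 1 had the lowest summed HSC marker level, 2090 CPM, and a macrophage marker sum of 38.4 CPM, within the MUL-HSC range of 25.5 to 40.4. PLT-HSC 1 had an HSC marker sum of 4118 CPM and a macrophage marker sum of 212 CPM, the highest of its class. Its T and NK cell marker sum of 376 CPM was the highest of 13 libraries, with PEM-HSC 5 next at 364. Klrb1c made up most of that sum in PLT-HSC 1, at 367 CPM. Nkg7 was at 8.3 CPM there, and Cd3e, Cd3g, Cd8a and Cd4 were at 0. In PEM-HSC 5 Klrb1c was at 221 CPM and Nkg7 at 142. Macrophage sums ran from 53.4 to 332 CPM over PEM-HSC libraries and from 55.3 CPM up over PLT-HSC, with 7 of 10 markers detected in MUL-HSC, 10 of 10 in PEM-HSC and 8 of 10 in PLT-HSC. Csf1r and Timd4 were at 0 in MUL-HSC and PLT-HSC, and Emr1 was at 0 in MUL-HSC and PLT-HSC 1 and at 3.73 CPM in PLT-HSC 2. Cd68 made up most of the PLT-HSC 1 and 2 sums, at 185 and 159 CPM; Mrc1 was at 19.4 CPM in PLT-HSC 1 and C1qb at 20.1 in PLT-HSC 2. The markers the sort excludes (Flt3, Cd48, Gata1) summed to 87.9 CPM in MUL-HSC 1 and 89.7 in MUL-HSC 2, against 2.94 to 34.3 in the other 11 libraries. The endothelial and stromal sum was 78.5 CPM in PLT-HSC 1, the highest of 13, and 15.05 in MUL-HSC 1. In PLT-HSC 1 it was made up of Pecam1 at 62.5 CPM and Kdr at 15.99, with Cdh5, Col1a1, Cxcl12 and Lepr at 0. The mean log2 CPM of 22 mitosis genes was -0.313 in PLT-HSC 1, the lowest of 13, against 4.91 in MUL-HSC 1 and 1.54 in PLT-HSC 2. The part of these properties in the immediate early gene levels was not tested.

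Over the 13 libraries, Fos showed no relation to 5 such measures that passed the test. Its Pearson r was 0.159 with total counts (Spearman's rho 0.121), -0.108 with genes detected (rho -0.181), -0.0906 with the spike-in share (rho -0.00549), -0.252 with the mitosis gene mean (rho -0.214) and 0.2 with the heat shock gene mean (rho 0.137). The permutation p of r, adjusted over the 5, was 0.771 in each case, and that of rho 0.872 to 0.993. Leaving out the 2 libraries farthest from the median of the measure gave r of 0.126 for mitosis and 0.382 for heat shock. With 13 libraries, relations of this size are not detectable.

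The 9 genes did vary together, with Jun as the exception. Of 36 pairs, 34 had a Pearson r over 0.5 across the 13 libraries, with a median of 0.812 and a range of 0.461 to 0.967. The median Spearman's rho was 0.75. After adjustment over the 36 pairs, 32 passed 0.05 for r and 27 for rho in permutation tests. For scale, the median r over all pairs of tested genes was -0.00239, and 5.36% of those pairs exceeded 0.5. The points share libraries and a common total, and the genes were chosen as a known co-induced group. With class means removed the median r was 0.853, and within the 6 PEM-HSC libraries alone it was 0.821. For the genes other than Jun the relation was thus present inside 1 class, where PEM-HSC 5 and 6 held their highest levels. The r of Jun with the others within PEM-HSC ran from -0.335 to 0.0573. Without MUL-HSC 1 and PLT-HSC 1 the median was 0.666, with 23 of 36 pairs over 0.5.

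Fos and Dusp1, an activator and a phosphatase that ends the signal inducing it, were among the closest pairs. Their r was 0.932 and rho 0.951, with an adjusted permutation p of 9e-05 for r. The unadjusted p was 1e-05, the smallest that the drawn pairings can give. Without the 2 libraries farthest from the median of Fos, r was 0.882. Junb and Egr1 had the highest r, 0.967 (rho 0.874, adjusted permutation p = 9e-05), and 0.806 without the 2 farthest libraries. Fos and Fosb had r 0.914 and rho 0.868, and 0.777 without the 2 farthest. Junb and Ier2 had r 0.830 and rho 0.918, and r was 0.918 without the 2 farthest.

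Jun was the exception. Its median r with the other 8 genes was 0.613, against 0.767 to 0.869 for each of the others. Its r with Fos was 0.664 (adjusted permutation p = 0.036), but rho was 0.236 (adjusted permutation p = 0.45), r without the 2 farthest libraries was 0.073, and r within PEM-HSC was -0.289. For Jun and Jund, r was 0.461 (adjusted permutation p = 0.119) and rho -0.0495. Jun and Junb had r 0.874 and rho 0.582, and r was 0.255 without the 2 farthest libraries. For rho, none of the Jun pairs had an adjusted permutation p under 0.05, the lowest being 0.0522 with Junb. The libraries left out were MUL-HSC 1 and PLT-HSC 2 for Jun with Fos, and MUL-HSC 1 and 2 for Jun with Junb. Without MUL-HSC 1 and PLT-HSC 1, r was -0.16 with Fos and 0.307 with Junb. Both relations therefore rest on few libraries. MUL-HSC 1, where Jun had 11 counts, was left out each time, and r without it alone was not computed. Of the motifs searched, TGACGT stood in the promoter stretches of Fos and Dusp1. Zfp36, Fosb, Junb and Jund, with median r of 0.79, 0.812, 0.849 and 0.767, lacked it as Jun did. TGACATCA stood in Jun alone, and Egr1 and Ier2 had no promoter entry. Any part of these motifs in the correlations was not tested.

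**Figure D4:**
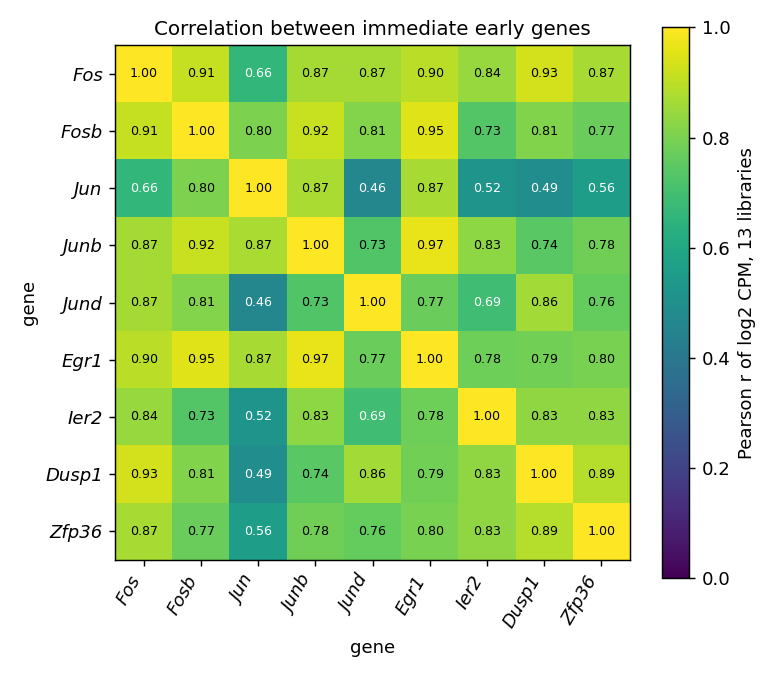
Pearson r of log2 CPM over 13 libraries for each pair of the 9 tested genes; yellow is near 1. The Jun row and column hold the lowest values, with 0.46 for Jund and 0.66 for Fos, while Fos with Dusp1 is 0.93 and Junb with Egr1 is 0.97.

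The genes outside the group with the most similar pattern were ranked by their median r with the 9. Klf2, a zinc finger factor that is itself an immediate early gene, came first with a median r of 0.866. It was at 0, 38.7, 10.2 and 17.3 CPM in MUL-HSC 1 to 4, at 4.94 to 36.7 in PEM-HSC and at 117.7, 2.61 and 7.49 in PLT-HSC, which again puts MUL-HSC 1 lowest and PLT-HSC 1 highest. Next were Cdk14 (0.811), Nkx2-3 (0.808), Slain1 (0.807), Snord73a (0.802), Pigg (0.797), Golgb1 (0.794) and Trmt10a (0.792). Of 11679 genes ranked, 78 had a median r over 0.7, and the median over all was -0.0142. Without MUL-HSC 1 and PLT-HSC 1, the median r of Klf2 was 0.556 and that of Cdk14 0.712. For the others named it ran from 0.352 for Golgb1 to 0.572 for Pigg, so the end libraries carried part of the likeness.

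Wider lists of the pathway were examined in the same fit. Of 20 other AP-1 and bZIP genes, 17 were tested and 0 were called in each comparison by edgeR. At an unadjusted p under 0.05 there were 2, 0 and 3, beside 924, 744 and 467 of all 12536 tested genes. These are for PLT-HSC against MUL-HSC, PEM-HSC against MUL-HSC and PLT-HSC against PEM-HSC. The median log2 fold changes of the 17 were 0.18, 0.024 and 0.081 in the same order. The most abundant was Nfe2, a bZIP factor of megakaryocyte and erythroid cells, at 1150 ± 273 CPM (SD, n = 4), 1183 ± 132 (SD, n = 6) and 907 ± 75.3 (SD, n = 3), followed by Atf4, a factor of the integrated stress response, at 104 ± 38.0 (SD, n = 4), 74.1 ± 16.3 (SD, n = 6) and 101 ± 10.3 (SD, n = 3). The median over these 17 genes of their r with the 9 was -0.023 and 0 of 17 exceeded 0.5. Of 40 other immediate early genes, 33 were tested and 0 were called by edgeR. At an unadjusted p under 0.05 there were 5, 3 and 1, beside the same 924, 744 and 467 of all tested genes. Their median log2 fold changes were 0.58, 0.29 and 0.37. DESeq2 called 1 of 33, the growth arrest gene Gadd45g, in PLT-HSC against MUL-HSC (adjusted p = 6.29e-05) and in PEM-HSC against MUL-HSC (adjusted p = 1.32e-05), beside 2.01% and 1.42% of all genes, where edgeR gave log2 fold changes of 2.77 and 2.51 with adjusted p of 0.0906 and 0.227. Its median r with the 9 genes was 0.383. Their median r with the 9 was 0.301, and 9 of 33 exceeded 0.5, among them Ppp1r15a (0.756), which promotes recovery of translation after stress, and the zinc finger genes Klf10 (0.667) and Klf4 (0.615). Ppp1r15a was at 538 CPM in PLT-HSC 1, 38.7 in MUL-HSC 1 and 25.7 in PLT-HSC 2. Egr2 had 0 counts in all 13 libraries. The most abundant of the list were Myc, a growth regulator, at 458 ± 122 CPM (SD, n = 4), 324 ± 119 (SD, n = 6) and 236 ± 88.5 (SD, n = 3), and Cited2, a coactivator needed to maintain HSCs, at 313 ± 93.8 (SD, n = 4), 374 ± 69.9 (SD, n = 6) and 495 ± 219 (SD, n = 3).

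Of 19 feedback regulators of the same signals 18 were tested, of 24 upstream kinases and factors all 24, of 14 heat shock genes 13, and all 22 mitosis genes; 0 were called in each comparison for each list by edgeR, DESeq2 and limma voom. At an unadjusted p under 0.05 by edgeR in PLT-HSC against MUL-HSC there were 1, 0, 0 and 1 genes in that order, beside 924 of all 12536 tested genes. Without PLT-HSC 3, edgeR called 1 mitosis gene, the spindle gene Nusap1, in that comparison (adjusted p = 0.0365), and Gadd45g as well (adjusted p = 0.0478), beside 37 of all genes (0.285%). In PLT-HSC against MUL-HSC their median log2 fold changes were -0.025, 0.15, 0.33 and -0.87 in that order. The median r with the 9 genes was 0.152 for feedback regulators, 0.186 for upstream genes, 0.032 for heat shock genes and -0.278 for mitosis genes. Dusp5 (0.687) and Socs3 (0.529), inhibitors of MAP kinase and cytokine signalling, and Rps6ka1 (0.601) and Mkl2 (0.555), a kinase of the MAP kinase cascade and a coactivator of serum response factor, were the members over 0.5. Abundant genes of these lists are given as values. Rgs1, which dampens signalling of G protein-coupled receptors, was at 716 ± 354 CPM (SD, n = 4) in MUL-HSC, 508 ± 141 (SD, n = 6) in PEM-HSC and 429 ± 183 (SD, n = 3) in PLT-HSC, and Zfp36l2, a relative of Zfp36, at 220 ± 34.8, 198 ± 68.2 and 233 ± 119 in the same order. The p38 gene Mapk14, an upstream kinase, was at 164 ± 38.7, 164 ± 43.9 and 173 ± 50.2 CPM. The chaperone Hsp90ab1 was at 952 ± 147, 1162 ± 154 and 1200 ± 360 CPM, and Hspa8 at 918 ± 133, 1137 ± 298 and 954 ± 191. The cyclin gene Ccnb2 was at 176 ± 99.0, 186 ± 110 and 103 ± 138 CPM, and the mitotic kinase Cdk1 at 92.1 ± 34.8, 75.0 ± 53.8 and 72.5 ± 82.3. None of these 7 genes was called in any comparison.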

How the data were processed

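RNA from 100 sorted cells per library was copied to cDNA with a Smart-seq+ protocol on polyadenylated RNA and tagmented with Nextera XT, as the labels' protocols say. The submitters' processing notes name Trimmomatic, FastQC, STAR, featureCounts and the mm9 build; versions, settings, strand mode and annotation are not given in the sources used here, so reads of overlapping antisense genes cannot be told apart. The authors deposited 1 table of raw read counts per gene, with 92 spike-in rows, which were left out of totals and tests. The protocol names no molecular identifiers, so counting intervals cover counting error only. Replicates of a class differed by a chi-square of at least 163 times its degrees of freedom, so no library was a copy of another.

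CPM was computed on gene totals. The 13 libraries were fitted together by class with edgeR 4.0.16 in R 4.3.3. The fit used filterByExpr with a minimum count of 10, TMM and the robust quasi-likelihood F test. Benjamini-Hochberg adjustment was over 12536 genes, with calls at 0.05. The standard error is the absolute log2 fold change over the root of F. Intervals are nominal 95%, the estimate ± 1.96 standard errors. This normal quantile makes them narrower than intervals matched to the F test. Log2 CPM used a prior count of 2. Correlations over libraries used 100000 random pairings. The fit was tested on simulated counts. Promoters are RefSeq on GRCm38.p6; no coordinates of the authors' build were used. Exon lengths are GENCODE M21 exon unions. Named genes are the 10 members, the 2 most abundant or up to 4 called genes of each other list, and the 8 genes most alike; others are named after their values were seen. The members and lists were chosen with earlier results of these data known. The values of 2 genes that this rule or the marker lists would name are not reported here.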

Additional observations from a re-analysis of the deposited data

How the results depend on the processing

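No setting called any of the 9 genes; of 648 alternative values of their 27 fold changes, 577 kept their sign and 71 turned it, in 24 of the 27, 0 past the threshold. Counts of all genes called in PLT-HSC against MUL-HSC, PEM-HSC against MUL-HSC, PLT-HSC against PEM-HSC and the joint test were 6, 1, 0 and 1; they were 249, 175, 93 and 60 with DESeq2. With limma voom the counts were 0 in the first, 1 in the third and 0 jointly; with no filter 11 in the first and 3 jointly; with at least 10 CPM in at least 3 libraries 13 in the first; with only the 2 classes compared 1 and 0 in the first 2; with MUL-HSC 1 and 2 left out 1 in the first. Leaving out each library in turn gave 1 to 37, 0 to 4, 0 to 2 and 0 to 23, the highest without PLT-HSC 3, and 21 in the first without MUL-HSC 3; the lowest in the first was without MUL-HSC 1 or PLT-HSC 2. The low ends rest on few counts: Jun had 11 and Fosb 0 in MUL-HSC 1, which held 22192295 gene counts. In MUL-HSC 3, with 16371921 gene counts, Jun had 358 counts and Fosb 474.

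The replicate numbers showed no sign of pairing the samples: over 10 pairs with the same number, correlations of deviations were -0.132 to 0.0482. The labels name no pairing, and correlations over all genes cannot exclude a shared sort or recipient. With the replicate block 2 genes were called in PLT-HSC against MUL-HSC, 0 in PEM-HSC against MUL-HSC and 0 jointly. The block turned Dusp1 to -0.13 in the first comparison, Fos to -0.47, Fosb to -1.09, Egr1 to -0.31 and Ier2 to -0.21 in PEM-HSC against MUL-HSC, and Ier2 to 0.18 in PLT-HSC against PEM-HSC.

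With MUL-HSC 1 and PLT-HSC 1 both left out, chosen after seeing the data, calls were 2 in PLT-HSC against MUL-HSC and 0 in PEM-HSC against MUL-HSC and jointly, the median pairwise r was 0.666, and the median fold change of the 9 genes in PLT-HSC against MUL-HSC was -0.95. Log2 fold changes that turned there were Fos -1.18, Fosb -0.95, Junb -0.63, Jund -0.44, Egr1 -0.96, Dusp1 -2.07 and Zfp36 -1.43 in PLT-HSC against MUL-HSC, Fos -0.18, Fosb -0.31, Jun -0.077, Egr1 -0.16 and Ier2 -0.072 in PEM-HSC against MUL-HSC, and Fos -0.99, Fosb -0.64, Junb -0.88, Jund -0.63, Egr1 -0.80, Dusp1 -1.44 and Zfp36 -0.69 in PLT-HSC against PEM-HSC. With MUL-HSC 1 and 2 left out, Junb was -0.023 in PLT-HSC against MUL-HSC, and Fos -0.13, Fosb -0.019, Jun -0.49, Junb -0.084, Egr1 -0.38 and Ier2 -0.25 in PEM-HSC against MUL-HSC. Limma voom gave Dusp1 -0.23 in PLT-HSC against MUL-HSC, and Fos -0.049, Junb -0.063 and Dusp1 -0.22 in PLT-HSC against PEM-HSC.

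In PLT-HSC against MUL-HSC, leaving out 1 library at a time gave log2 fold changes of Fos -0.77 to 1.34, Fosb -0.51 to 1.14, Junb -0.24 to 1.19, Jund -0.13 to 1.31, Egr1 -0.55 to 1.49, Ier2 -0.59 to 0.21, Dusp1 -1.69 to 0.72 and Zfp36 -1.08 to 0.98. In PEM-HSC against MUL-HSC it gave Fos -0.17 to 0.43, Fosb -0.29 to 0.57, Jun -0.079 to 1.21, Egr1 -0.16 to 0.60, Ier2 -0.067 to 0.34, Dusp1 -0.62 to 0.28 and Zfp36 -0.73 to 0.13. In PLT-HSC against PEM-HSC it gave Fos -0.99 to 1.12, Fosb -0.64 to 1.02, Junb -0.88 to 0.40, Jund -0.64 to 0.55, Egr1 -0.80 to 1.24, Ier2 -0.75 to 0.054, Dusp1 -1.44 to 0.93 and Zfp36 -0.70 to 1.27. The values that turned rest on few libraries by construction; for limma voom and the block the cause was not tested.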
